A study of Arabidopsis thaliana with 18 samples.

Results

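The 48 genes described here are nuclear genes that encode proteins of the 2 photosystems, of their light-harvesting antennae and of Rubisco. They were selected by locus code from the deposited gene table, with earlier results of these data known. The set holds 15 LHCB genes (antenna of photosystem II), 6 LHCA genes (antenna of photosystem I), 12 PSA and 11 PSB genes (subunits of photosystems I and II) and 4 RBCS genes (small subunit of Rubisco), out of 34218 genes listed. All 48 passed the filter on low counts, as did 23539 genes in all.

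RNA was sequenced from explants of Arabidopsis thaliana Col-0, immature zygotic embryos (IZEs) taken at the cotyledonary stage and cultured for 5 or 10 days. ET medium contained 1 µM trichostatin A (TSA), an inhibitor of histone deacetylases, EA medium contained 5 µM of the synthetic auxin 2,4-D, and E0 was the same basal medium with neither. The 6 groups were thus ET 10 d, EA 10 d, E0 10 d, ET 5 d, EA 5 d and E0 5 d, each with 3 biological replicates named a, b and c. All cultures shared 20 g/L sucrose, 23 °C and a 16 h photoperiod of weak white light, so that no group was grown in the dark or without sugar. Each replicate pooled 250 explants on day 5 or 100 explants on day 10. ET and EA are the media for induction of somatic embryogenesis (SE), whereas explants on E0 develop into seedlings, so E0 is not an unchanged embryo, and the 2 sampling days of E0 are stages of germination and seedling growth in culture. In such bulk tissue, fewer green cells and less of a transcript per cell cannot be told apart.

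Photosystem II splits water and passes electrons through the thylakoid membrane to photosystem I, which reduces ferredoxin. Chlorophyll-binding LHCB and LHCA proteins feed light energy to both reaction centres, and Rubisco fixes CO2 in the Calvin cycle with the ATP and NADPH that result. The reaction centre proteins and the large subunit of Rubisco are encoded in the chloroplast, while the genes treated here are transcribed in the nucleus and their products imported. In Arabidopsis these nuclear genes are known to be low in dry seeds and in the dark, to be induced by light and by factors such as GLK1 and GLK2, and to be repressed by sugar and by signals from damaged plastids. Cotyledons of developing embryos are green, lose chlorophyll as the seed matures, and green again after germination.

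Total counts per library ranged between 9098758 and 58364735. Levels are given as CPM after TMM scaling of the library sizes, and a floor of 3 counts equals 0.0487 to 0.329 CPM depending on the library. A differentially expressed gene (DEG, called here) had an adjusted p below 0.05 in the quasi-likelihood F-test of edgeR, with the Benjamini-Hochberg procedure applied to all 23539 genes of a comparison. Markers of other tissues were checked first. Transcripts of 8 embryo and seed maturation genes, storage proteins among them, were abundant in every library (sums of 15715 to 155095 CPM). The 5 root hair genes summed to at most 38.2 CPM in ET and at most 6.09 CPM in EA, against 90.6 to 500.5 CPM in E0. The 5 guard cell genes summed to 7.03 to 9.39 CPM in E0 at 10 d and to at most 3.34 CPM in the other groups. The part of these tissues in the results was not tested.

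Some libraries stood apart in the levels of these genes. Each library was set against the mean log2 CPM of the other 2 replicates of its group. In ET 5 d c the median of the 48 genes lay 1.47 above that mean and 45 of 48 were positive. The 12397 tested genes within the range of exon lengths of the 48, with the 48 among them, had a median of 0.11 in ET 5 d c. PSBW had 349 CPM in that library, against a mean of 27.4 CPM in ET 5 d a and b, and PSBR had 832 CPM, against 70.0 CPM. Chloroplast transcripts took 11.7% of its counts, against 7.43 to 7.87% in the other 2 ET 5 d libraries, and its shoot epidermis markers summed to 1523 CPM, against 2658 to 3074 CPM. EA 10 d c was high as well (median 0.48, 31 of 48 positive) with raised PSBW and PSBR and low PSAD1 and PSAD2. Low medians were found in ET 5 d b (-1.11), EA 10 d a (-0.74) and E0 10 d b (-0.68). The mean that ET 5 d b was set against holds the high ET 5 d c, and that of EA 10 d a holds EA 10 d c. In 5 of the 6 groups, the library with the fewest counts had the lowest summed level of the 48 genes. Counts of DEGs are therefore given with and without ET 5 d c where they rest on it.

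The promoters of 9 genes with close copies are shown first, since copies of one family differed in several comparisons. Each is the stretch of 250 bases upstream of the annotated gene start in the RefSeq annotation of TAIR10.1, written 5′ to 3′ on the strand of the gene. Capitals mark 3 motifs of light-regulated promoters, searched on both strands, namely the G-box CACGTG, the I-box GATAAG and CCAATC, a motif reported at GLK targets. None of the 3 overlaps another by its letters in the stretches shown. The 4 RBCS promoters come first. RBCS1A (AT1G67090) lies alone on chromosome 1 (chr1:25049668-25049917, minus strand).
RBCS1A: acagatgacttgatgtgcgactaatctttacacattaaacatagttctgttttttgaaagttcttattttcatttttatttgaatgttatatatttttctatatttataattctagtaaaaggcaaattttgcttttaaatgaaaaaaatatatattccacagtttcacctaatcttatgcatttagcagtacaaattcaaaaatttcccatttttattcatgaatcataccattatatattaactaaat
The 3 B genes lie in a row on the minus strand of chromosome 5, with promoters at chr5:15385321-15385570 (RBCS1B, AT5G38430), chr5:15382072-15382321 (RBCS2B, AT5G38420) and chr5:15378643-15378892 (RBCS3B, AT5G38410).
RBCS1B: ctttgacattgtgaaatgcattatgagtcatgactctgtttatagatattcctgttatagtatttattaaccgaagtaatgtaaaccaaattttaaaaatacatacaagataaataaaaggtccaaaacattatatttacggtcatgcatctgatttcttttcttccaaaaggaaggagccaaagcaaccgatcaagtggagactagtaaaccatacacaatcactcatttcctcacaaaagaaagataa
RBCS2B: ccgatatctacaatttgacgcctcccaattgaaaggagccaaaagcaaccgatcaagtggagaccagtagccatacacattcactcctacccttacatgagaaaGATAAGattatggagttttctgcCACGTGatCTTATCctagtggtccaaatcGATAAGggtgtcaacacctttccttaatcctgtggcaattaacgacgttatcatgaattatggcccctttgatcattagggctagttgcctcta
RBCS3B: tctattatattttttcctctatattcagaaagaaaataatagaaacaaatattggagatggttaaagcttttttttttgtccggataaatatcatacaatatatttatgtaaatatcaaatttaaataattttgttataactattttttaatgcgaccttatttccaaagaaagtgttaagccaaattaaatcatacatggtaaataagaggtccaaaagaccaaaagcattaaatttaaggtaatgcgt
LHCB1.4 and LHCB1.5 are neighbours on chromosome 2, read in opposite directions from the space between them, with promoters at chr2:14524357-14524606 (plus strand) and chr2:14523569-14523818 (minus strand).
LHCB1.4: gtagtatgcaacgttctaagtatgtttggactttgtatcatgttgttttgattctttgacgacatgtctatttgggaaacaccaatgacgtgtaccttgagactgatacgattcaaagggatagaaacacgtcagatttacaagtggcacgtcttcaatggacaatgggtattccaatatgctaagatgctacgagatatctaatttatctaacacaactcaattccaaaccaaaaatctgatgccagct
LHCB1.5: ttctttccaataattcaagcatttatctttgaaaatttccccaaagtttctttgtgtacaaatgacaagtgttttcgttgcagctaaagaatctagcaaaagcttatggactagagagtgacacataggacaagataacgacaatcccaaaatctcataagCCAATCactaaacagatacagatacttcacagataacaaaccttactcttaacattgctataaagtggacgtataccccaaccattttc
LHCB2.3 (chr3:10255656-10255905, plus strand) is 1 of 3 LHCB2 genes.
LHCB2.3: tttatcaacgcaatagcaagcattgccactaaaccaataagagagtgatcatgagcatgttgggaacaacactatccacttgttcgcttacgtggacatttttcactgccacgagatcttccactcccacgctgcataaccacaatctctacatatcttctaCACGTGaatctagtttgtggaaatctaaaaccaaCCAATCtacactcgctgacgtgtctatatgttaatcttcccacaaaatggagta
PSBQ1 (chr4:11334102-11334351, plus strand) and PSBQ2 (chr4:2673244-2673493, minus strand) encode the same extrinsic protein and were called in opposite directions between the days of E0. Both calls were lost in some of the fits that left out a library.
PSBQ1: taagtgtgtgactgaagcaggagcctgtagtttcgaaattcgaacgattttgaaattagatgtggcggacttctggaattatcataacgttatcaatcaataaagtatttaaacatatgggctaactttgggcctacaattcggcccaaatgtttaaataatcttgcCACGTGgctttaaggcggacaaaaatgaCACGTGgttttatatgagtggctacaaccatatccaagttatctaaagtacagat
PSBQ2: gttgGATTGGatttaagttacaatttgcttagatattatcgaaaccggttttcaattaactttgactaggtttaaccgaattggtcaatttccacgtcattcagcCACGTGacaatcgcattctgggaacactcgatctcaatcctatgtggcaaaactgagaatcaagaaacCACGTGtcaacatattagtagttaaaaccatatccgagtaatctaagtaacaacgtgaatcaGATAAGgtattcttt
RBCS2B held 1 G-box and 3 I-boxes in this window, and the windows of RBCS1A, RBCS1B and RBCS3B held none of the 3 motifs. Across all 48 genes, the G-box was found in 11, the I-box in 10 and CCAATC in 11, against 6.49%, 12.29% and 10.23% of 27443 promoters of the same length. A match is a description of the sequence and not of a bound site.

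Averaged per kilobase of exon, LHCB1.3 and RBCS1A were the most abundant of the 48 in every group. LHCB1.3 (AT1G29930), which encodes a main protein of the trimeric antenna, had 1473 CPM per kilobase in ET, 729 in EA and 643 in E0 at 10 d. On day 5 its level was 2496 CPM per kilobase in ET, 714 in EA and 691 in E0. RBCS1A was second in ET and EA and first in E0 on both days. The 4 lowest levels of each group came from LHCB7, a rare antenna protein, LHCA5 and LHCA6, which join photosystem I to the NDH complex, LHCB1.4, RBCS1B and RBCS2B. Some of these were close to the floor, as LHCA6 in EA at 5 d with counts of 4, 2 and 6.

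Summed over the 48 genes, transcripts reached 11341 ± 2036 CPM in ET, 5218 ± 1005 CPM in EA and 6922 ± 1921 CPM in E0 at 10 d (SD, n = 3 each). At 5 d the sums were 15026 ± 8495 CPM in ET, 5315 ± 959.8 CPM in EA and 5556 ± 539 CPM in E0. The single ET libraries at 5 d held 11732, 8672 and 24675 CPM, all above the E0 libraries with 6136, 5459 and 5072 CPM, with ET 5 d c far above the others. Of the counts of nuclear genes, the set took 1.2% in ET, 0.617% in EA and 0.745% in E0 at 10 d. At 5 d the set took 1.54% in ET, 0.629% in EA and 0.568% in E0.

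**Figure D1:**
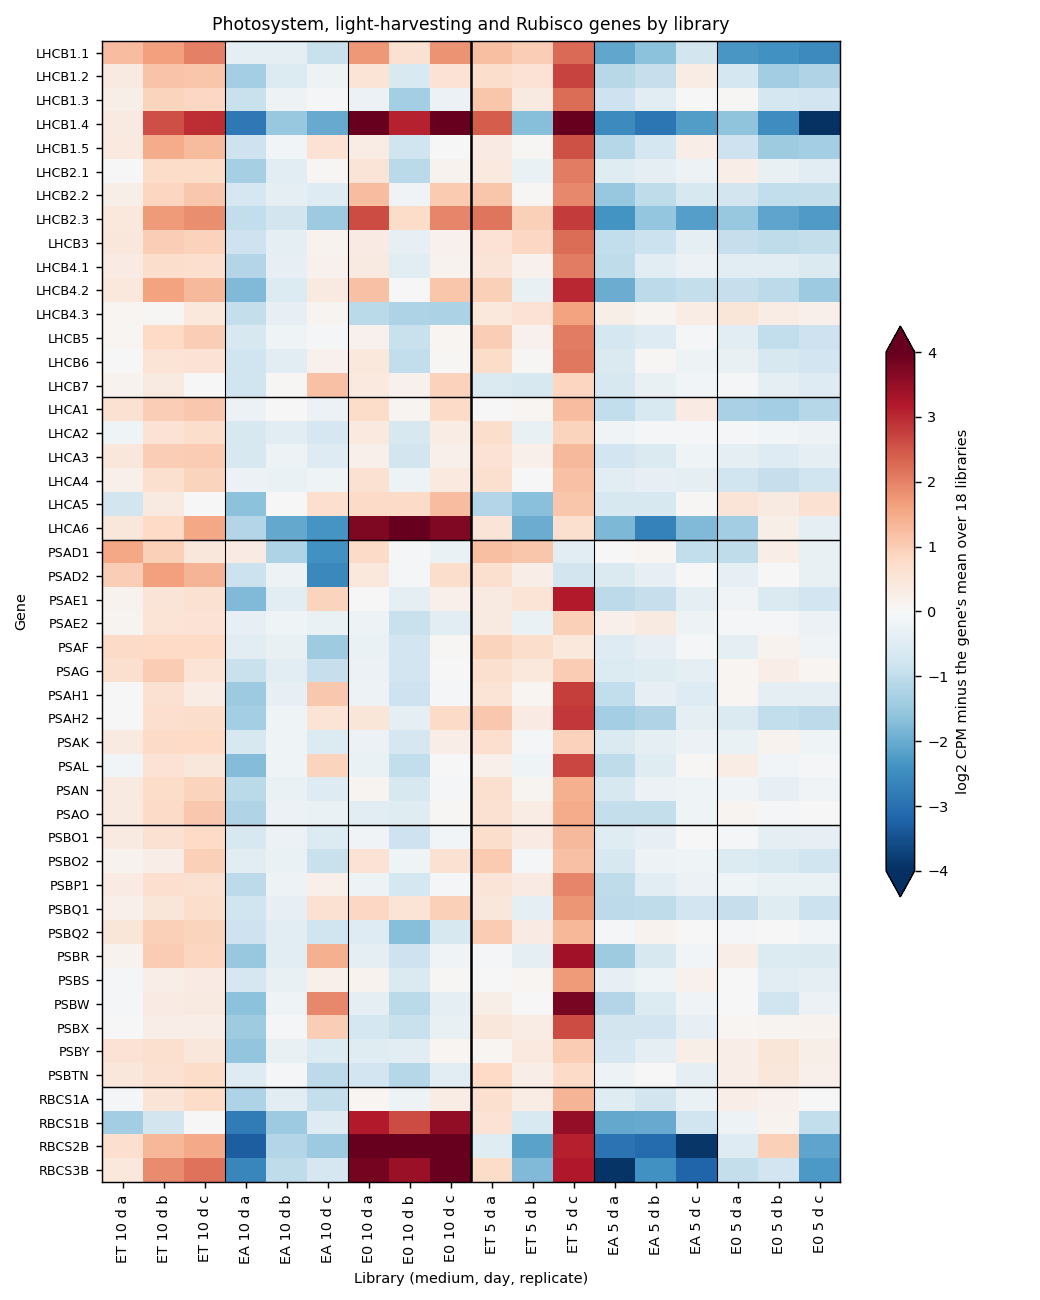
Log2 CPM of each of the 48 genes (rows, by family) in each of the 18 libraries (columns, by medium, day and replicate), as the difference from the gene's mean over all libraries. The columns of ET 5 d, ET 5 d c above all, are red in most rows, and in E0 10 d a few rows stand out (LHCB1.4, LHCA6 and the 3 RBCS B genes).

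At 5 d, ET explants held more transcript of most of these genes than E0 explants. Of the 48, 34 were upregulated in ET/E0 and 0 downregulated, while 23.8% of all tested genes were called higher and 21.5% lower. Without ET 5 d c, 21 were higher and 1, LHCA5, lower, while 21% of all genes were called higher and 19.8% lower. No member was lower at an unadjusted p under 0.05 or by DESeq2. The median log2 fold change was 1.45 over the 48, against 0.07 over all genes, and 0.72 without ET 5 d c. By family, 12 of 15 LHCB, 3 of 6 LHCA, 8 of 12 PSA, 9 of 11 PSB and 2 of 4 RBCS genes were called. Without ET 5 d c the higher calls were 12 LHCB, 3 LHCA, 2 PSA, 4 PSB and 0 RBCS genes. In the same libraries the embryo and seed maturation markers summed to 18785 to 29490 CPM in ET, against 68895 to 111615 CPM in E0 (3 of 8 called higher and 4 lower), and the root hair markers to 1.03 to 4.2 CPM in ET, against 263 to 500.5 CPM in E0. The endosperm markers summed to 55.0 to 213 CPM in ET, against 17.9 to 23.4 CPM in E0 (2 of 3 tested called higher), with FIS2 and FWA at 0 in E0. Their part in the result was not tested.

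The largest differences at 5 d were those of antenna genes with low levels in E0. LHCB1.1 (AT1G29920) had 385, 331 and 795 CPM in ET, against 33.3, 30.6 and 28.1 CPM in E0 (log2 fold change 4.04 ± 0.43 (SE), adjusted p = 1.89e-06). The lowest ET library lay far above the highest E0 library. LHCB2.3 (AT3G27690) had 43.6, 19 and 67.6 CPM in ET, against 3.35, 2.22 and 1.97 CPM in E0 (4.05 ± 0.55, adjusted p = 1.99e-05). LHCB1.4 (AT2G34430) rested on few reads, with 196, 2 and 540 counts in ET, against 10, 1 and 0 counts in E0. The ET 5 d b library, at 0.215 CPM, lay within the E0 range, and the 0 counts in E0 5 d c allow up to 0.329 CPM. The fitted value of LHCB1.4 was 5.33 ± 1.11, adjusted p = 0.000921, and it stayed called without any single library.

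The abundant trimer genes moved less. LHCB1.3 had 2449, 1451 and 5309.5 CPM in ET, against 1183, 705 and 662 CPM in E0 (1.85 ± 0.43, adjusted p = 0.00236). LHCB3, the third protein of the trimers, had 301, 362 and 958 CPM in ET, against 106, 99.3 and 104 CPM in E0 (2.39 ± 0.37, adjusted p = 7.39e-05). In both genes the groups did not overlap, and the ET 5 d c value was the highest. LHCB5, the monomeric antenna protein CP26, rose by 2.01 on the log2 scale and LHCB6 (CP24) by 1.78. LHCB2.1, LHCB4.3 and LHCB7 were not called (1.18, 0.64 and 0.39). Among the photosystem I antenna genes, LHCA1, LHCA3 and LHCA4 were called, with LHCA4 at 1.52 ± 0.26, adjusted p = 0.000183. LHCA1, an inner antenna protein, had 160.5, 172 and 384 CPM in ET, against 66.1, 64.3 and 73.7 CPM in E0 (adjusted p = 0.000423).

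Most photosystem II subunits were upregulated in the fit of all libraries. PSBO1 (AT5G66570), the main manganese-stabilising protein of the oxygen-evolving complex, had 540.1, 417 and 812 CPM in ET, against 322, 254 and 262 CPM in E0 (1.08 ± 0.25, adjusted p = 0.00188). PSBQ1 (AT4G21280), a copy of the extrinsic PSBQ protein, had 32, 18 and 78.7 CPM in ET, against 12.3, 16.4 and 12.8 CPM in E0 (1.65 ± 0.42, adjusted p = 0.00418). PSBW and PSBR were called (2.74 and 2.22), but their ET 5 d a and b values of 29.5 and 25.3 CPM (PSBW) and 78.4 and 61.6 CPM (PSBR) stood against 24.6, 14.5 and 21.2 CPM (PSBW) and 97.5, 56 and 54.4 CPM (PSBR) in E0. PSBR overlapped between the groups, PSBW was only just apart, and both calls were lost without ET 5 d c. PSBY and PSBTN were not called (0.22 and 0.32).

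In the fit of all libraries 8 of the 12 photosystem I genes were upregulated, 2 of them also without ET 5 d c. PSAH2 (AT1G52230), which helps to dock the mobile antenna, had 46.2, 27.6 and 157 CPM in ET, against 14.7, 11 and 10.5 CPM in E0 (2.66 ± 0.58, adjusted p = 0.00127). PSAF (AT1G31330), the lumenal docking site of plastocyanin, had 312, 273 and 224 CPM in ET, against 129, 187 and 154 CPM in E0 (0.78 ± 0.26, adjusted p = 0.0207). PSAD1, PSAD2, PSAE2 and PSAL were not called, and PSAD1 was lowest in ET 5 d c (643, 602 and 201 CPM in ET, against 136, 336 and 226 CPM in E0). The 13 calls lost without ET 5 d c were PSBP1, PSAO, PSAK, PSBS, PSAG, PSBR, RBCS3B, RBCS1B, PSAN, PSAH1, PSBX, PSBW and PSAE1. Leaving out E0 5 d a, b or c alone left 27, 28 or 24 genes, and 20 of the 34 were called whichever library was left out.

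**Figure D2:**
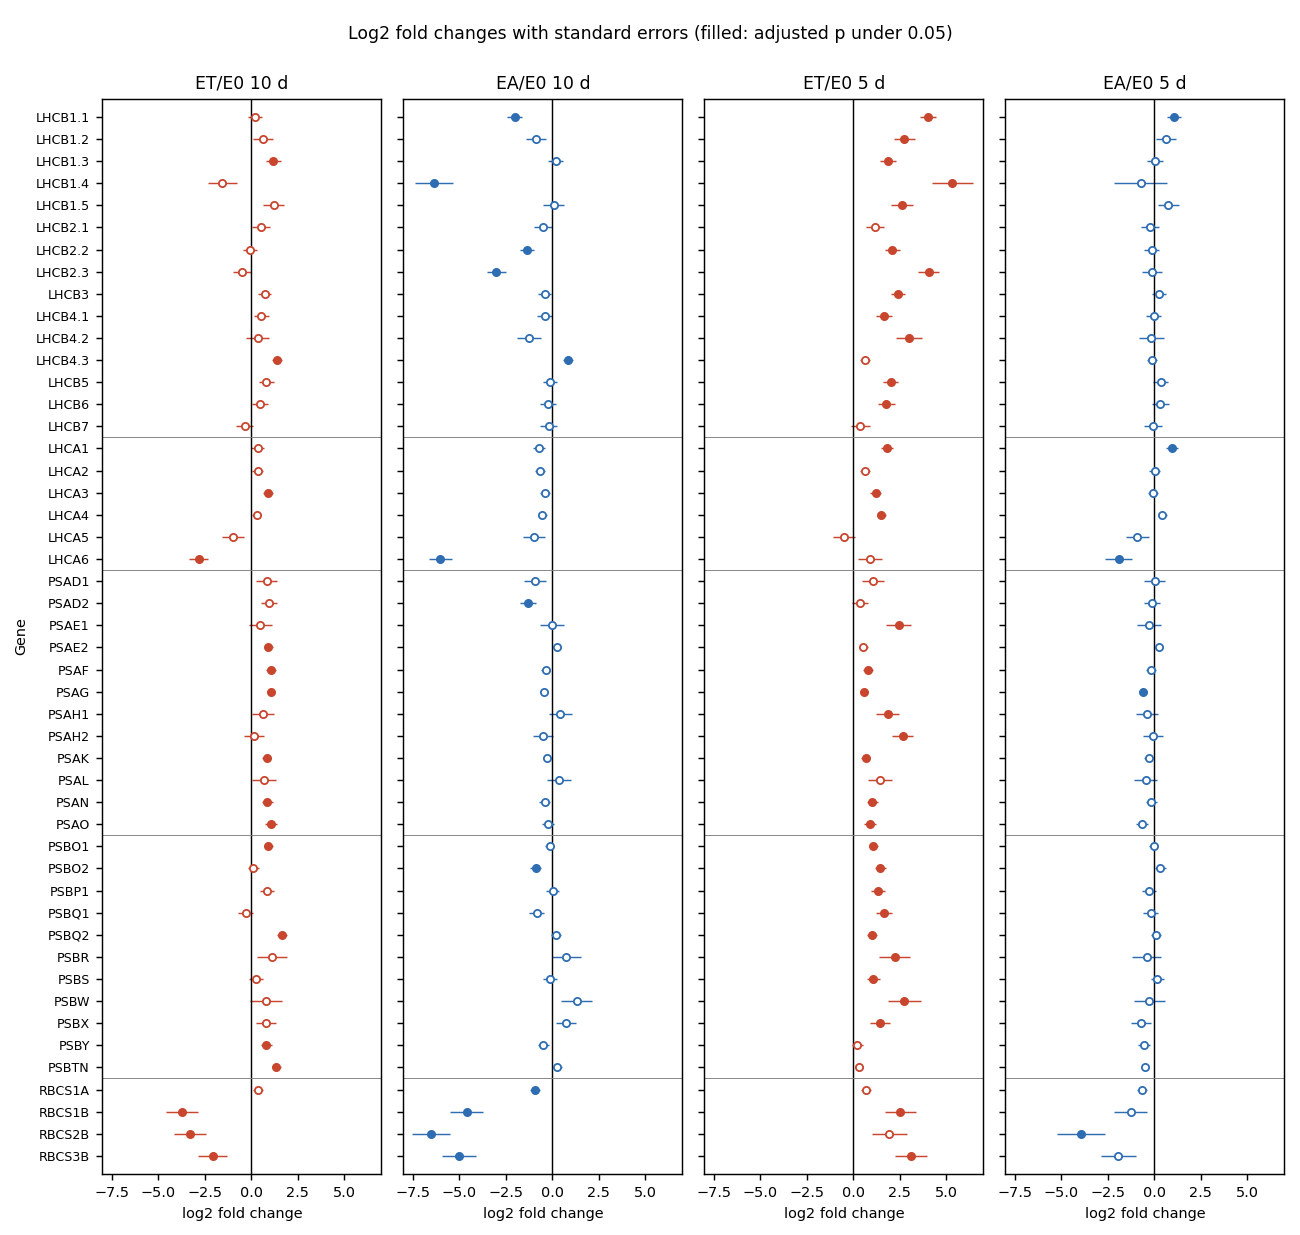
Log2 fold changes of the 48 genes (rows, by family) with their standard errors (bars) in ET/E0 10 d, EA/E0 10 d, ET/E0 5 d and EA/E0 5 d (panels from left to right), where filled circles are DEGs. Most filled circles of ET/E0 5 d lie to the right of 0, and those of EA/E0 10 d lie to the left except LHCB4.3.

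Between days 5 and 10, the level of some copies of a family changed in E0 explants while that of others did not pass the test. Of the 48 genes, 12 were higher and 3 lower in E0 at 10 d than at 5 d, while 10.4% of all genes were called higher and 7.1% lower. The median log2 fold change was 0.43, against 0.02 over all genes. LHCB1.1 had 553, 252 and 576 CPM in E0 at 10 d, against 33.3, 30.6 and 28.1 CPM at 5 d (log2 fold change 3.91 ± 0.43 (SE), adjusted p = 2.41e-05). Its neighbour LHCB1.3 had 964, 443 and 968 CPM at 10 d, against 1183, 705 and 662 CPM at 5 d, and was not called (-0.10 ± 0.42, adjusted p = 0.904). The 2 groups of LHCB1.1 were far apart, while those of LHCB1.3 overlapped.

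LHCB1.4 had 17.3, 7.56 and 15 CPM in E0 at 10 d, against counts of 10, 1 and 0 at 5 d (6.32 ± 1.12, adjusted p = 0.0011). LHCB2.3 had 60.2, 16.5 and 38.2 CPM at 10 d, against 3.35, 2.22 and 1.97 CPM at 5 d (3.86 ± 0.55, adjusted p = 0.0002). LHCA6 (AT1G19150) had 8.48, 10.6 and 8.35 CPM at 10 d, against 0.19, 0.708 and 0.439 CPM at 5 d (4.57 ± 0.62, adjusted p = 0.00013). In all 3 the lowest library at 10 d lay above the highest at 5 d. LHCB2.2, LHCA1 and LHCA4 were also higher (1.72, 1.83 and 1.13). LHCB4.3 (AT2G40100), the variant of the CP29 protein also named LHCB8, fell to 34.6, 31.2 and 30.7 CPM at 10 d, against 102, 90.2 and 84.5 CPM at 5 d (-1.52 ± 0.28, adjusted p = 0.00151). The other CP29 genes were not called (0.54 for LHCB4.1 and 1.96 for LHCB4.2).

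In photosystem II, PSBQ1 had 41.3, 33.9 and 44.8 CPM in E0 at 10 d, against 12.3, 16.4 and 12.8 CPM at 5 d (1.54 ± 0.42, adjusted p = 0.0174). Its copy PSBQ2 (AT4G05180) fell to 129.9, 57.7 and 121 CPM at 10 d, against 179, 189.9 and 174 CPM at 5 d (-0.81 ± 0.27, adjusted p = 0.0497). PSBO2 rose (1.03) and PSBTN fell (-1.06), and no PSA gene was among the 15. With 1 of the 18 libraries left out at a time, PSBQ2 was lost in 15 of the 18 fits, PSBO2 and PSBQ1 were lost without E0 5 d a, E0 5 d c or E0 10 d c, and the other 12 calls were made in every fit. PSBO2 was also lost without E0 5 d b or E0 10 d a. The guard cell markers summed to 7.03 to 9.39 CPM in E0 at 10 d, against 2.41 to 3.34 CPM at 5 d, and the root hair markers to 90.6 to 131.6 CPM, against 263 to 500.5 CPM. The embryo and seed maturation markers stayed abundant, at 94295 to 155095 CPM at 10 d and 68895 to 111615 CPM at 5 d. The shoot epidermis markers summed to 1425 to 1513 CPM at 10 d, against 1910 to 2131 CPM at 5 d. The endosperm markers summed to 222 to 665 CPM at 10 d, against 17.9 to 23.4 CPM at 5 d (1 of 3 tested called higher), with FIS2 and FWA at 0 on both days. The part of these tissues in the changes was not tested. Among the 12 genes that rose, 4 promoters held a G-box, 2 an I-box and 4 CCAATC, against 7, 8 and 7 among the other 36.

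At 10 d, ET explants differed from E0 explants in both directions. Of the 48 genes, 13 were upregulated and 4 downregulated in ET/E0, while 18% of all genes were called higher and 20% lower. The median log2 fold change was 0.64, against 0.01 over all genes. By family, 2 LHCB, 1 LHCA, 6 PSA and 4 PSB genes were higher, and LHCA6 and 3 RBCS genes were lower. PSBQ2 had 261, 365 and 348 CPM in ET, against 129.9, 57.7 and 121 CPM in E0 (1.65 ± 0.28, adjusted p = 0.000186). LHCB4.3 had 76.9, 75.7 and 99.5 CPM in ET, against 34.6, 31.2 and 30.7 CPM in E0 (1.39 ± 0.28, adjusted p = 0.000887). In both genes every ET library lay above every E0 library. The endosperm markers summed to 939 to 3031 CPM in ET, against 222 to 665 CPM in E0, with FIS2 at 0 in both groups. The shoot epidermis markers summed to 1668 to 2357 CPM in ET, against 1425 to 1513 CPM in E0. Lower in ET were the root hair markers (6.7 to 38.2 CPM, against 90.6 to 131.6 CPM) and the guard cell markers (1.09 to 1.55 CPM, against 7.03 to 9.39 CPM). The embryo and seed maturation markers overlapped (58801 to 102338 CPM in ET, against 94295 to 155095 CPM in E0). The part of these tissues in the differences was not tested.

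PSAF had 288, 293 and 293 CPM in ET, against 141, 99.6 and 173 CPM in E0 at 10 d (1.08 ± 0.26, adjusted p = 0.00348). PSBTN, a small lumenal protein of photosystem II, had 216, 241 and 264 CPM in ET, against 93, 72.7 and 117 CPM in E0 (1.35 ± 0.23, adjusted p = 0.000263). The other genes that rose were LHCB1.3, LHCA3, PSAE2, PSAG, PSAK, PSAN, PSAO, PSBO1 and PSBY, with log2 fold changes of 0.81 to 1.19. LHCA6 had 0.821, 1.06 and 1.83 CPM in ET, against 8.48, 10.6 and 8.35 CPM in E0 (-2.82 ± 0.52, adjusted p = 0.000421). LHCB1.1, at 386, 513 and 669.7 CPM in ET against 553, 252 and 576 CPM in E0, was not called (0.18 ± 0.38, adjusted p = 0.749). Without ET 10 d c or E0 10 d b only 10 of the 17 calls were made, 7 higher and 3 lower, and LHCB1.3, LHCA3, PSAK, PSAN, PSAO, PSBY and RBCS3B were lost in both fits.

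Few of these genes were called between EA and E0 explants at 5 d. Of the 48 genes, 2 were higher and 3 lower in EA/E0, while 19% of all genes were called higher and 20.8% lower. The median log2 fold change was -0.14, against 0.02 over all genes, and it changed sign to 0.08 when libraries were scaled by their totals, which moved the median of all genes by 0.21. LHCB1.1 had 39.2, 52.8 and 99.5 CPM in EA, against 33.3, 30.6 and 28.1 CPM in E0 (1.06 ± 0.39, adjusted p = 0.0393). LHCA1 had 82.5, 107 and 204 CPM in EA, against 66.1, 64.3 and 73.7 CPM in E0 (0.95 ± 0.34, adjusted p = 0.0336). In both genes EA 5 d c was the highest library. PSAG, LHCA6 and RBCS2B were lower (-0.61, -1.91 and -3.92), with RBCS2B at counts of 3, 4 and 1 in EA. With 1 library left out at a time, none of these 5 calls was made in every fit, and the number of calls ranged between 0 (without E0 5 d b) and 6.

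At 10 d a share of these genes close to that of all genes was lower in EA than in E0. Of the 48 genes, 11 were downregulated and 1, LHCB4.3, upregulated in EA/E0, while 36 were not called and, of all genes, 25% were called lower and 24.2% higher. The median log2 fold change was -0.40, against 0.09 over all genes. Of the families, 4 LHCB, 1 LHCA, 1 PSA, 1 PSB and all 4 RBCS genes were lower. The shoot epidermis markers summed to 421 to 1070.5 CPM in EA, against 1425 to 1513 CPM in E0, and the embryo and seed maturation markers to 15715 to 26789 CPM in EA, against 94295 to 155095 CPM in E0 (4 of 8 called higher and 4 lower). Their part in the lower levels was not tested.

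LHCB1.1 had 127, 126 and 89.3 CPM in EA, against 553, 252 and 576 CPM in E0 (-2.01 ± 0.39, adjusted p = 0.000489). LHCB2.3 had 4.91, 5.83 and 3.53 CPM in EA, against 60.2, 16.5 and 38.2 CPM in E0 (-3.01 ± 0.50, adjusted p = 0.000119). LHCA6 had counts of 14, 5 and 3 in EA, against 8.48, 10.6 and 8.35 CPM in E0 (-6.02 ± 0.62, adjusted p = 8.72e-07), and LHCB1.4 counts of 4, 13 and 7 in EA, against 17.3, 7.56 and 15 CPM in E0 (-6.37 ± 1.01, adjusted p = 7.23e-05). No EA library reached the lowest E0 library in any of the 4. LHCB1.3, with 611, 978 and 1102 CPM in EA against 964, 443 and 968 CPM in E0, was not called (0.18 ± 0.42, adjusted p = 0.742). PSAD2 had 20.8, 32.3 and 6.2 CPM in EA, against 50.1, 35.3 and 60.8 CPM in E0 (-1.30 ± 0.43, adjusted p = 0.02). LHCB4.3 had 37.8, 57.9 and 79.1 CPM in EA, against 34.6, 31.2 and 30.7 CPM in E0 (0.86 ± 0.28, adjusted p = 0.0167), a call lost without EA 10 d c or E0 10 d c. Without E0 10 d c, PSAD2, RBCS1A and PSBO2 were lost as well and 8 genes remained lower, and with ET 5 d c and EA 10 d c both left out 19 were lower.

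ET and EA explants, both on a medium that induces SE, differed in most of these genes at 5 d and in over 20 of them at 10 d, with higher levels in ET. At 5 d, 39 of the 48 genes were higher in ET/EA and 0 lower, while 20.1% of all genes were called higher and 16.4% lower. At 10 d, 27 were higher and 0 lower, while 17.6% of all genes were called higher and 14.4% lower. No gene was lower at an unadjusted p under 0.05 or by DESeq2 on either day. Median log2 fold changes were 1.59 at 5 d and 1.05 at 10 d, and scaling by library totals moved the median of all genes by -0.24 and -0.17. Without ET 5 d c, 27 genes were higher at 5 d, and without ET 10 d b or c 19 or 18 were higher at 10 d. RBCS1A had 803, 1192 and 1386 CPM in ET, against 350.4, 611 and 427 CPM in EA at 10 d (1.28 ± 0.28, adjusted p = 0.00239). PSAF had 288, 293 and 293 CPM in ET, against 125, 136 and 63.1 CPM in EA (1.43 ± 0.26, adjusted p = 0.000574). The groups of both genes did not overlap. The largest differences at 10 d were those of LHCB1.4 (4.82), RBCS2B (3.21) and LHCA6 (3.20), all at low levels in EA. PSAD2, the ferredoxin-docking subunit, had 74.6, 116 and 96 CPM in ET, against 20.8, 32.3 and 6.2 CPM in EA (2.27 ± 0.45, adjusted p = 0.001). Its EA 10 d c value was the lowest, as in PSAD1. At 10 d the embryo and seed maturation markers summed to 58801 to 102338 CPM in ET, against 15715 to 26789 CPM in EA (7 of 8 called higher), and the endosperm markers to 939 to 3031 CPM in ET, against 9.36 to 62.4 CPM in EA (2 of 3 tested). The shoot epidermis markers summed to 1668 to 2357 CPM in ET, against 421 to 1070.5 CPM in EA (4 of 5 called higher), and the root hair markers to 6.7 to 38.2 CPM in ET, against 2.62 to 6.09 CPM in EA (3 of 5). At 5 d the endosperm markers summed to 55.0 to 213 CPM in ET, against 13.7 to 32.6 CPM in EA (2 of 3 tested called higher), and 2 of 8 embryo markers were higher and 1 lower. The part of these tissues in the ET/EA differences was not tested.

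Within ET, RBCS1B alone was lower at 10 d than at 5 d and 0 genes were higher by edgeR, with 1 higher by DESeq2 and 1 at an unadjusted p under 0.05, while 8.53% of all genes were called lower and 12% higher. The call of RBCS1B (-2.78) was lost without ET 5 d c or any of the ET 10 d libraries. Within EA no gene was called in either direction by edgeR or DESeq2, 2 were higher and 1 lower at an unadjusted p under 0.05, and 7.85% of all genes were called higher and 5.2% lower.

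The change of the ET/E0 difference between days was tested as an interaction. For 14 genes ET/E0 was lower at 10 d than at 5 d and for 1 (PSBTN, 1.03) higher, while 6.62% of all genes were called lower and 7.64% higher. LHCB1.1 had the smallest adjusted p of these (-3.85 ± 0.56, adjusted p = 0.000371), followed by LHCB2.3 (-4.55 ± 0.71, adjusted p = 0.000665). For EA/E0, 4 genes were lower (LHCA6, LHCB1.1, LHCB2.3 and LHCA1) and 0 higher by edgeR and DESeq2, with 2 higher at an unadjusted p under 0.05, while 4.57% of all genes were called lower and 4.24% higher. Without ET 5 d c the ET interaction was called lower for 7 genes and higher for LHCB4.3. The calls of PSAH2, RBCS2B, LHCB3, LHCA4, PSBO2, LHCA1, PSBQ1 and PSBTN were lost. Over the 48 genes, the median ET interaction was -0.02 without ET 5 d c. Without any other single library it lay between -1.30 and -0.80. Of the EA calls, LHCB1.1 alone was made whichever library was left out. Values for all of these are given in the closing section. ET/E0 and EA/E0 share the E0 libraries, so their values are set side by side and not correlated.

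The RBCS genes, copies that encode nearly the same protein, differed in their patterns. RBCS1A had 803, 1192 and 1386 CPM in ET, 350.4, 611 and 427 CPM in EA and 884, 717 and 1013 CPM in E0 at 10 d. EA was lower than E0 (-0.91 ± 0.28, adjusted p = 0.0128) and lost this call without EA 10 d a or E0 10 d c, while ET was not called against E0 (0.37 ± 0.28, adjusted p = 0.323). RBCS3B had 7.67, 21.3 and 25.7 CPM in ET, 0.877, 2.81 and 3.56 CPM in EA and 80.9, 62.3 and 89.3 CPM in E0 at 10 d (ET/E0 -2.07 ± 0.78, adjusted p = 0.0464, and EA/E0 -5.02 ± 0.90, adjusted p = 0.000217). Its 3 groups did not overlap, but the ET/E0 call was close to the threshold and was lost in 13 of the 18 fits that left out 1 library.

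RBCS2B had 1.83, 2.95 and 3.36 CPM in ET, 0.065, 0.475 and 0.374 CPM in EA and 21.8, 29 and 31.2 CPM in E0 at 10 d (ET/E0 -3.30 ± 0.87, adjusted p = 0.00652, and EA/E0 -6.51 ± 1.04, adjusted p = 7.24e-05). RBCS1B had 0.73, 1.19 and 1.99 CPM in ET, 0.244, 0.692 and 1.38 CPM in EA and 18.7, 12.4 and 24.2 CPM in E0 (ET/E0 -3.73 ± 0.85, adjusted p = 0.00222, and EA/E0 -4.61 ± 0.87, adjusted p = 0.000361). At 10 d every E0 library of both genes lay above the ET and EA libraries, while RBCS1B overlapped between ET and EA. In E0 all 3 B genes were higher at 10 d than at 5 d. RBCS3B had 80.9, 62.3 and 89.3 CPM at 10 d, against 2.88, 3.34 and 1.1 CPM at 5 d (4.95 ± 0.92, adjusted p = 0.00167). RBCS1A was not called between the days of E0 (-0.09 ± 0.28, adjusted p = 0.877). ET 5 d c was the highest library of day 5 for all 3 B genes, with 23.7, 10.2 and 52.4 CPM for RBCS1B, RBCS2B and RBCS3B.

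**Figure D3:**
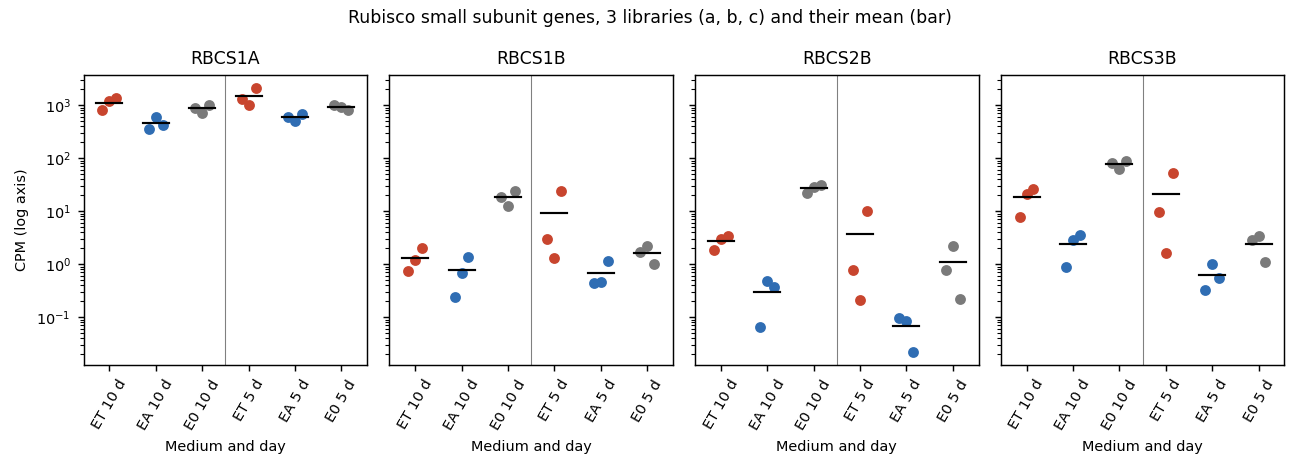
CPM on a log axis of the 4 Rubisco small subunit genes in the 3 libraries (points, a to c) of each medium and day, with their mean (bar). The means of the 3 B genes are highest in E0 10 d, in these genes ET 5 d c lies above the other 5 d libraries, and RBCS1A lies between 350.4 and 2143 CPM in all libraries.

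RBCS1A thus took a smaller part of the RBCS counts in E0 at 10 d. Its share was 98.2% ± 0.514 in ET, 99.3% ± 0.452 in EA and 87.6% ± 0.292 in E0 at 10 d, and 99.5% ± 0.274 in E0 at 5 d (SD, n = 3 each). The E0 10 d libraries did not overlap the others in ET/E0, EA/E0 or 10 d/5 d. The 2-sided exact permutation p was 0.1 in each, the smallest that 3 against 3 libraries allow, and 0.257 after adjustment over 18 such tests, 7 of which did not overlap. Copies of some other families shifted in the same libraries and were not tested. PSAD2 did not shift, with 14.0% ± 5.92 of the PSAD counts in E0 at 10 d and 13.2% ± 4.09 at 5 d. PSBO2 took 27.7% ± 0.613 of the PSBO counts in E0 at 10 d, against 15.2% ± 1.35 at 5 d, and PSBQ1 29.3% ± 6.75 of the PSBQ counts, against 7.09% ± 0.771. LHCB2.3 took 14.2% ± 1.95 of the LHCB2 counts at 10 d, against 1.86% ± 0.117 at 5 d, and LHCB4.3 19% ± 4.77 of the LHCB4 counts, against 53.3% ± 1.07. In ET at 10 d the LHCB2.3 share was 8.9% ± 1.84, against 4.08% ± 1.69 in EA.

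**Figure D4:**
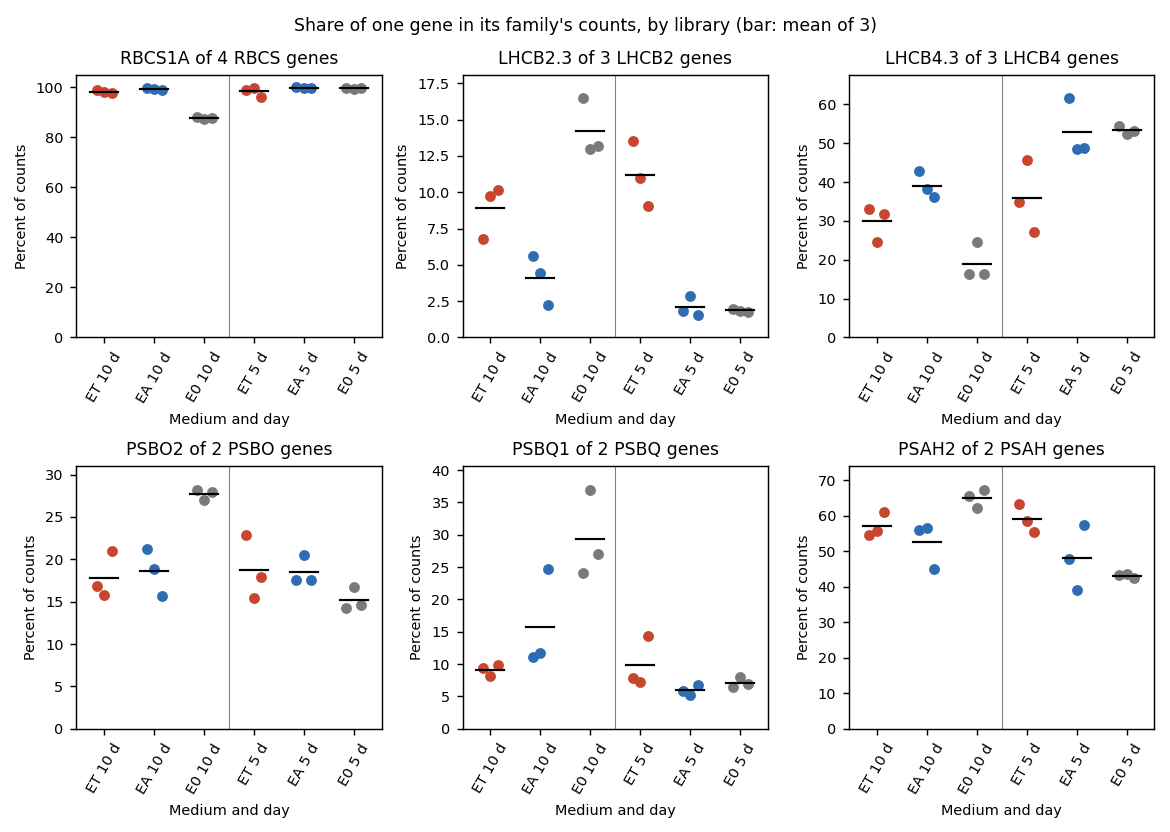
Percent of a family's counts that come from 1 gene, in the 3 libraries (points) of each medium and day with their mean (bar), for RBCS1A, LHCB2.3, LHCB4.3, PSBO2, PSBQ1 and PSAH2. In E0 10 d RBCS1A lies below and PSBO2 above every library of the other groups, while the LHCB2.3 share of E0 10 d overlaps that of ET 5 d.

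Other genes of the pathway were described from lists chosen with earlier results of these data known. In ET/E0 at 5 d, 9 of 20 Calvin cycle genes, 9 of 14 electron transport and ATP synthase genes, 15 of 20 chlorophyll synthesis genes and 7 of 12 assembly genes were higher. Lower in the same lists were 0, 1, 0 and 1, and the median log2 fold changes were 0.58, 0.72, 0.65 and 0.58, against 0.07 over all genes, 23.8% of which were called higher. Without ET 5 d c the higher counts were 6, 5, 15 and 5, and the medians 0.28, 0.36, 0.58 and 0.52. Rubisco activase, RCA, which removes inhibitors from Rubisco, had log2 fold change 1.70 ± 0.22 (SE), adjusted p = 1.36e-05. PORB and PORC, the light-dependent protochlorophyllide reductases, had log2 fold changes of 1.67 and 1.62. HCF136, an assembly factor of photosystem II, had log2 fold change 1.49 ± 0.19 (SE), adjusted p = 9.65e-06. Among 12 regulators of greening, 6 were higher, with GLK1 at 2.73 ± 0.27, adjusted p = 8.37e-07 and GLK2 at 0.68 ± 0.18, adjusted p = 0.00493. Without ET 5 d c, 5 of the 12 were higher and 0 lower, while 21% of all genes were higher and 19.8% lower. The list holds both activators and repressors of greening, so its counts have no single direction. Both GLK genes encode transcription factors that activate antenna and chlorophyll genes.

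In ET/E0 at 10 d, 3 Calvin cycle, 4 electron transport, 3 chlorophyll and 3 assembly genes were higher, and 2, 0, 3 and 0 lower, while 18% of all genes were called higher and 20% lower. GLK1 was higher in ET (0.70 ± 0.25, adjusted p = 0.0346), while CGA1 and GNC, GATA factors of chloroplast development, were lower (-2.26 and -1.28). In EA/E0 at 10 d, 6 of 20 Calvin cycle, 6 of 14 electron transport, 9 of 20 chlorophyll and 5 of 12 assembly genes were lower and 0 of each higher, with medians of -0.33, -0.33, -0.54 and -0.36, against 0.09 over all genes, 25% of which were called lower. RCA was lower (-2.56 ± 0.23, adjusted p = 2.19e-07), as were PORC (-1.78 ± 0.25, adjusted p = 1.8e-05), GLK1 (-2.14 ± 0.26, adjusted p = 4.94e-06) and GLK2 (-1.89 ± 0.18, adjusted p = 4.78e-07). CGA1 was lower still (-4.16 ± 0.31, adjusted p = 3.68e-08). PIF4, one of the repressors on the list, was also lower (-4.13 ± 0.72, adjusted p = 0.000171). In the fit without ET 5 d c, 6 of the 12 regulators were lower and 2 higher in EA/E0 at 10 d. Of all genes, 25.7% were called lower and 26% higher in that fit. In EA/E0 at 5 d, 4 Calvin cycle, 4 electron transport, 3 chlorophyll and 2 assembly genes were lower, and 0, 0, 0 and 3 higher, while 20.8% of all genes were called lower and 19% higher. Of the 8 LHC-like genes, relatives of the antenna genes, 2 rose and 2 fell in ET/E0 at 5 d, and 1 rose and 2 fell in EA/E0 at 10 d. Of all genes, 23.8% were called higher and 21.5% lower in ET/E0 at 5 d, and 24.2% and 25% in EA/E0 at 10 d.

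Chloroplast-encoded partners were measured in the same libraries. Of 7 such genes, 6 were higher in ET/E0 at 5 d, where 23.8% of all genes were called higher, and 2 lower in EA/E0 at 10 d, where 25% of all genes were called lower. Without ET 5 d c, in which chloroplast transcripts took the largest share of counts of its group, 3 were higher and 1 lower in ET/E0 at 5 d. The gene of the Rubisco large subunit, rbcL, had log2 fold change 1.36 ± 0.33 (SE), adjusted p = 0.00322, and psaA, a core protein of photosystem I, had 1.29 ± 0.36, adjusted p = 0.008. In EA/E0 at 10 d, rbcL (-1.02 ± 0.33, adjusted p = 0.0174) and psbA, the D1 protein of photosystem II (-0.73 ± 0.23, adjusted p = 0.0139), were lower.

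**Figure D5:**
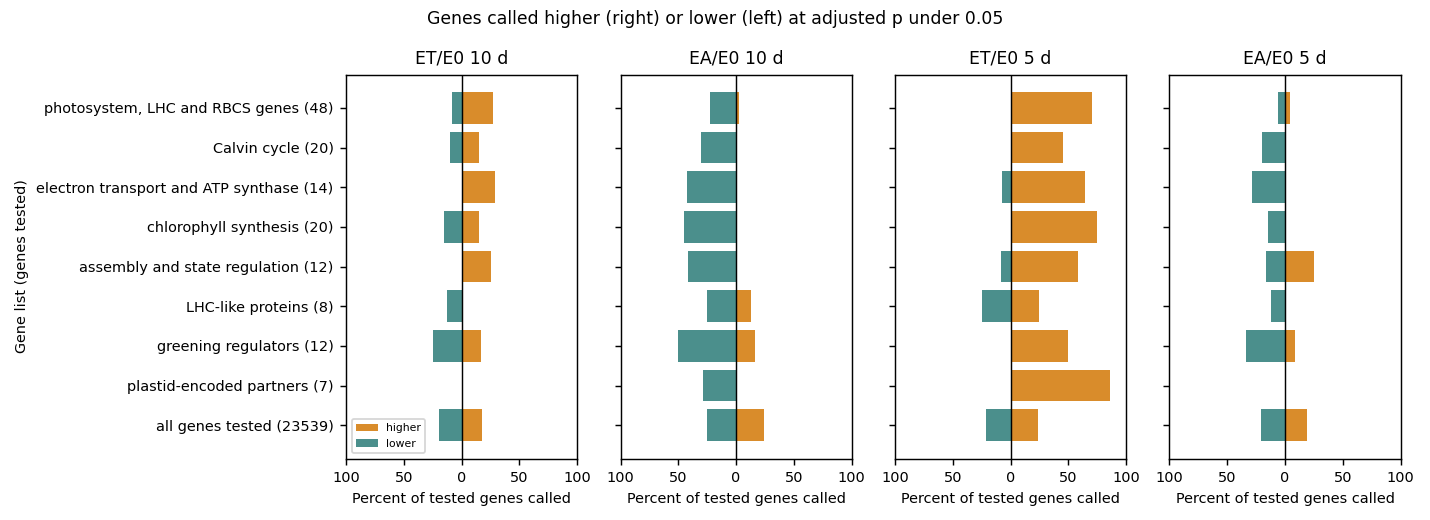
Percent of the tested genes of each list (rows, with the number tested) called higher (right of 0) or lower (left of 0) in ET/E0 10 d, EA/E0 10 d, ET/E0 5 d and EA/E0 5 d. In ET/E0 5 d the bars of most lists reach further to the right than that of all tested genes, and in EA/E0 10 d most lie to the left.

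Some of the genes share sequence or position with others, which limits what their counts can say. Of the 76-base windows along the exons, those that occur elsewhere in the genome made up 18.82% in LHCB2.2, 15.1% in LHCB2.1, 14.89% in RBCS3B and 10.17% in LHCB1.1, and less in 7 other genes, and reads that lie wholly in such windows can be missing from unique counts. LHCB1.5 lies wholly within an antisense gene, and antisense genes covered 61.41% of the exons of PSAG, 53.31% of PSAH1 and 40.61% of LHCB2.3. The strand setting of the counts is not given in the sources used here. Among the 37 genes without shared stretches, 26 were higher and 0 lower in ET/E0 at 5 d. Among the 32 without antisense overlap, 20 were higher and 0 lower. Of all tested genes, 23.8% were called higher and 21.5% lower. Both counts include ET 5 d c, without which 21 of all 48 genes were higher.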

How the data were processed

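RNA was sequenced from IZE explants on ET, EA and E0 media at 5 and 10 d (18 libraries). The authors depleted ribosomal RNA, sequenced 76-base read pairs, trimmed them and aligned them to TAIR10 with STAR. The deposited values are raw counts of uniquely placed reads for each gene. The labels name bcl2fastq, FastQC, MultiQC, STAR and DESeq2, with versions not given. The strand setting and annotation release are not given in the sources used here.

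Here genes were filtered with filterByExpr (23539 left), scaled by TMM and fitted in 1 edgeR 4.0.16 quasi-likelihood model (R 4.3.3, limma 3.58.1) with a mean per group over 18 libraries. Adjusted p-values follow Benjamini-Hochberg within each comparison, SE equals the absolute log2 fold change over the square root of F, and log2 CPM uses a prior count of 2. DESeq2 1.42.0, glmTreat, other scalings, no filter, only the compared libraries, a replicate block and left-out libraries were alternatives. The fit was tested on simulated data. The members and lists were chosen with earlier results of these data known. All 48 members may be named, and of each list at most the 2 called genes of largest absolute log2 fold change in a comparison with E0, plus rbcL, psaA, psbA, GLK1 and GLK2. Floors cover counting error only. Promoters and motifs come from RefSeq TAIR10.1, joined by locus code (32548 of 32833 codes matched), and figures were drawn with matplotlib 3.10.9.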

Additional observations from a re-analysis of the deposited data

Results flagged for a closer look

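Values of 19 results stood out because the effect of a medium relative to E0 differed between 10 d and 5 d, by the interaction test in edgeR. They are given as log2 differences (10 d minus 5 d) with no explanation. For ET/E0 the Rubisco genes gave -6.25 (RBCS1B), -5.23 (RBCS2B) and -5.17 (RBCS3B). The trimeric antenna genes gave -6.88 (LHCB1.4), -4.55 (LHCB2.3), -3.85 (LHCB1.1), -2.15 (LHCB2.2) and -1.67 (LHCB3). The photosystem I antenna genes gave -3.73 (LHCA6), -1.47 (LHCA1) and -1.22 (LHCA4). Subunit genes gave -2.54 (PSAH2), -1.95 (PSBQ1), -1.35 (PSBO2) and 1.03 (PSBTN). For EA/E0 the values were -4.11 (LHCA6), -3.07 (LHCB1.1), -2.89 (LHCB2.3) and -1.66 (LHCA1). All 19 had an adjusted p under 0.05 over all 23539 genes, the largest 0.0471 (LHCA1, ET/E0). No group here had 4 or more libraries, so single libraries were not screened as outliers by Dixon's test.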

How the results depend on the processing

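The direction of every gene-level result called in the main analysis was kept under all alternatives. In 3 results a direction opposite to the main value was called, all for RBCS2B in ET at 10 d against 5 d. Its main value was -0.51 and not called. Its log2 values were 2.18 without ET 5 d c, 2.17 without both ET 5 d c and EA 10 d c, and 2.18 without these and E0 10 d b. Single left-out libraries gave -1.01 to 2.18. Among the gene-level results under the alternatives, 14959 stayed on the same side of the threshold (10463 of them not called in the main analysis), 300 became called and 568 were no longer called. Counted among the 14959 are 457 results that differed in sign from the main value and were called in neither fit. The counts of called members moved by over 1.5 times in the following cases. Testing against an absolute log2 fold change of 1 (glmTreat) left 15 in ET/E0 5 d, 4 in ET/E0 10 d, 0 in EA/E0 5 d, 7 in EA/E0 10 d, 12 in ET/EA 5 d, 6 in ET/EA 10 d, 6 in 10 d/5 d E0, 0 in 10 d/5 d ET, 7 in the ET interaction and 1 in the EA interaction, and a minimum fold change gave 11 in ET/E0 10 d and 3 in EA/E0 5 d. Fitting only the libraries compared gave 26 in ET/E0 10 d, 10 in EA/E0 5 d, 0 in 10 d/5 d ET and 9 in the EA interaction, and DESeq2 gave 4 in 10 d/5 d ET and 7 in the EA interaction. Leaving out ET 5 d c and EA 10 d c together, an alternative chosen after seeing the data, gave 8 in EA/E0 5 d, 20 in EA/E0 10 d, 41 in ET/EA 10 d, 2 in 10 d/5 d ET, 1 in 10 d/5 d EA and 8 in the EA interaction. With E0 10 d b also left out these were 8, 29, 43, 3, 2 and 12, and 24 in 10 d/5 d E0. Shares of all genes are not given for these fits, so the counts cannot be set against the shares of the main fit. Leaving out 1 library at a time, the counts ranged from 22 to 41 in ET/E0 5 d, 10 to 21 in ET/E0 10 d, 0 to 6 in EA/E0 5 d, 8 to 15 in EA/E0 10 d, 27 to 42 in ET/EA 5 d, 18 to 34 in ET/EA 10 d, 12 to 18 in 10 d/5 d E0, 0 to 6 in 10 d/5 d ET, 0 to 1 in 10 d/5 d EA, 8 to 16 in the ET interaction and 2 to 8 in the EA interaction. With counts divided by exon length, the RBCS1A share in E0 10 d was 87.9%, and the share of LHCB1 counts from LHCB1.4 and LHCB1.5 was 14.7% in E0 5 d, 23.0% in ET 10 d and 20.2% in E0 10 d. The replicate letters were not taken to pair the samples, since r exceeded 0.1 in 15 of 45 same-letter pairs (-0.30 to 0.73), in all 3 pairs of none of the 9 comparisons between 2 groups, and 10 of 18 libraries correlated best with their own letter. All 3 same-letter pairs exceeded 0.1 between ET 5 d and EA 10 d (0.26 to 0.73) and between ET 5 d and E0 10 d (0.11 to 0.31), which were not compared directly. With a replicate block 10 d/5 d ET gave 2 calls, and the other counts stayed within 1.5 times. The cause of these changes was not tested. Shallow libraries limit genes near the floor, LHCB1.4, LHCA6 and RBCS2B above all.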
